A study of Mus musculus with 10 samples.

Results

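The genes described here encode the hormone Igf1, the receptors Insr, Igf1r and Igf2r, the receptor substrates Irs1 and Irs2, and the binding proteins Igfbp3, Igfbp4, Igfbp5 and Igfbp7. They were chosen by name, as the rows of the kidney count table that carry these symbols, and all 10 were found among the 43629 genes listed. The animals were UM-HET3 mice, a genetically heterogeneous stock made by crossing inbred strains, and every animal was male and 4 months of age. The 6 control mice, littermates of the treated ones, ate the plain diet, and the 4 treated mice were given rilmenidine, an imidazoline receptor agonist prescribed for hypertension, in that diet (10 ppm) from the age of 3 months, for 1 month. The study's methods describe more control kidneys than are analysed here. Each library came from 1 kidney sample, and the groups were not set apart by genotype or by any agent other than rilmenidine. As the stock is genetically heterogeneous, single animals differ in genotype. The comparison asks whether dietary rilmenidine, which the study examines as a possible mimetic of caloric restriction, shifts the transcripts of the insulin and IGF-1 pathway in the kidney.

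Insulin and IGF-1 bind to the related receptor tyrosine kinases Insr and Igf1r, which phosphorylate the docking proteins Irs1 and Irs2 and so recruit PI3-kinase and AKT. Igf2r has no kinase and carries IGF-2 and mannose 6-phosphate-tagged enzymes to lysosomes. Secreted binding proteins hold IGFs outside the cell and set how much ligand reaches the receptors, and Igfbp7 binds IGFs only weakly. In the kidney, IGF-1 acts on glomerular filtration and tubular growth, while insulin acts on sodium handling and gluconeogenesis in the tubule.

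The libraries held between 863605 and 3232063 counts. The totals were 863605, 1787638, 1187020, 1334020, 1644042 and 2559118 in control kidneys 1 to 6, and 1813465, 1924490, 3042036 and 3232063 in rilmenidine kidneys 1 to 4. The rilmenidine libraries were deeper on average, although the groups overlapped (two-sided exact permutation test, p = 0.0571, smallest possible 0.00476). The labelled tissue was borne out by tubular transcripts: Kap, a proximal tubule gene, stood at 39169 normalized CPM (the count of a gene relative to the scaled total of its library, the unit of all levels here) and Umod, of the thick ascending limb, at 1076 in the controls, whereas Alb, the main liver transcript, stood at 4.45. Libraries stood apart in Malat1 and in sensory receptor genes. Control kidney 2 also held the most blood, immune and stromal markers of all kidneys (values below). Malat1, a nuclear long non-coding RNA, lay between 1182 and 2100 CPM in control kidneys 1, 3, 4 and 5, but between 284 and 398 CPM in control kidneys 2 and 6 and all 4 rilmenidine kidneys. Olfactory and vomeronasal receptor genes, best known from the sensory epithelia of the nose, summed to between 51.7 and 436 CPM in 7 libraries and to 8.99, 4.27 and 7.43 CPM in control kidney 6 and rilmenidine kidneys 3 and 4. Mitochondrially encoded genes took 7.09 to 15.2% of counts in controls and 9.54 to 13.7% with rilmenidine.

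A short motif marks some promoters of this pathway. FOXO factors, which insulin signaling keeps out of the nucleus, bind to variants of the letters CAAAACA, and this run was searched on both strands in the 150 bases before each RefSeq gene start (GRCm38.p6), with TGTTTTG as its form on the opposite strand. No other motif was searched. Of 32851 promoters, 967 (2.94%) held the run. Of the 10 genes, 9 had a promoter entry (Insr had none), and 2 of these 9, both receptor substrates, held it. Igfbp1, a binding protein gene outside the 10 that is known for its insulin response element, is shown with them because its counts are described below. The sequences run 5′ to 3′ on the strand of the gene, and capitals mark the run. That of Igfbp1 lies at chr11:7197637-7197786 on the plus strand, that of Irs1 at chr1:82291440-82291589 on the minus strand, and that of Irs2 at chr8:11008930-11009079 on the minus strand.
Igfbp1: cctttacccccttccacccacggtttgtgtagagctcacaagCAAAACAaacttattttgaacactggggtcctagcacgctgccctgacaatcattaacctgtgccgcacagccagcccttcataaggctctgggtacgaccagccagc
Irs1: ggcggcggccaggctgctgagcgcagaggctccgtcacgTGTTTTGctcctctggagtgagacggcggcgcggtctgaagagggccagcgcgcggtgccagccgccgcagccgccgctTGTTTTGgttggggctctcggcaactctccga
Irs2: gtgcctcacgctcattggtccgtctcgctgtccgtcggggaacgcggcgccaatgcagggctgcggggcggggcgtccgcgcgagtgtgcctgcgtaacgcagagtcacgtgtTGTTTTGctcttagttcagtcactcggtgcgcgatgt
Counted back from the gene start, the run began at position -108 in Igfbp1, at -111 and -32 in Irs1, and at -37 in Irs2. These are matches of letters and not measured binding sites.

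At baseline, the binding protein transcripts Igfbp7 and Igfbp4 were by far the most abundant of the 10. Per kilobase of annotated exons, the control kidneys held 422 ± 99.8 CPM (SD, n = 6) of Igfbp7 and 315 ± 59.7 of Igfbp4, then 42.4 ± 6.07 of Igfbp5, 23.0 ± 2.14 of Igf2r and 15.9 ± 4.08 of Igfbp3. Both tyrosine kinase receptors followed at 3.17 ± 0.51 CPM per kilobase for Igf1r and 2.42 ± 0.48 for Insr. The substrates and the ligand closed the order, with 1.61 ± 0.79 for Irs2, 0.997 ± 0.23 for Igf1 and 0.134 ± 0.15 for Irs1. Among the 10055 genes tested, 98.9% lay below Igfbp7 on this scale, 33.0% below Igf1r, 25.2% below Insr and 6.44% below Igf1. By CPM without length, the shares were 97.6%, 70.3%, 57.5% and 21%.

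Neighbours in this order were compared within each control kidney as a log2 difference per kilobase. Igf1r exceeded Insr by 0.39 ± 0.12 (SD, n = 6), in 6 of 6 kidneys. Irs2 exceeded Igf1 by 0.59 ± 0.78, in 5 of 6, so that these 2 did not differ beyond their spread, and Insr exceeded Irs2 by 0.66 ± 0.65, in 5 of 6. All other neighbours kept their order in 6 of 6 control kidneys, Irs1 included, although its counts were too few for a measured level in single libraries. The library protocol counts the 3′ end of each transcript, so that length need not scale the counts. Without length, Igfbp4 (1392 CPM) came before Igfbp7 (510 CPM), Igf1r (53.3 CPM) came before Igfbp3 (49.9 CPM) with a log2 difference of 0.12 ± 0.48 (SD, n = 6), and the other 6 genes kept their places by mean. Irs2 and Igf1 could not be ordered on that scale, with a log2 difference of -0.059 ± 0.78 (SD, n = 6) and Irs2 the higher in 2 of 6 kidneys.

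**Figure D1:**
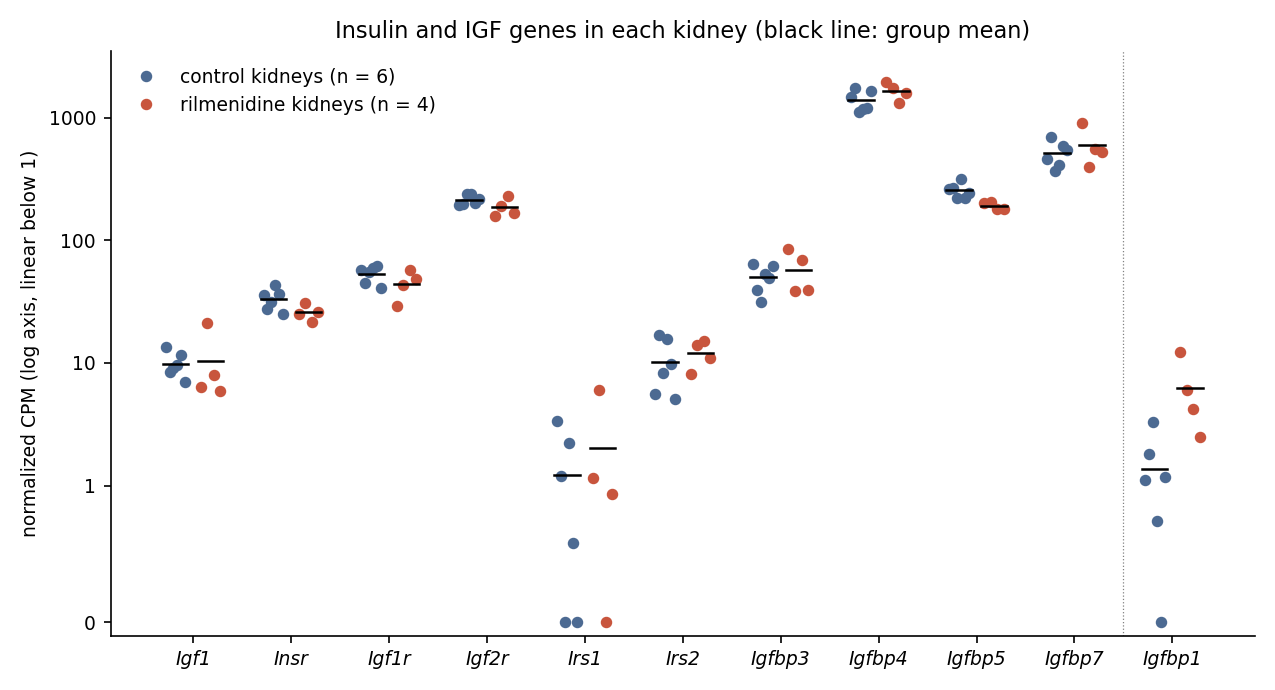
Normalized CPM (y axis, logarithmic, linear below 1) of the 10 genes and of Igfbp1 (x axis) in each control (blue, n = 6) and rilmenidine (red, n = 4) kidney, with black lines for group means. The binding proteins Igfbp4, Igfbp7 and Igfbp5 lie above the tyrosine kinase receptors in every kidney, and Igfbp5 is the only one of the 10 whose groups do not overlap.

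Across the whole table, no gene passed the threshold with rilmenidine. Of 10055 genes tested by the edgeR quasi-likelihood test, 0 (0%) had a Benjamini-Hochberg adjusted p below 0.05, 1061 (10.6%) had an unadjusted p below 0.05, and 616 (6.13%) had one with a lower level in the treated kidneys. DESeq2 called 60 genes and the edgeR likelihood ratio test 44, none of them among the 10. Of the 10 genes, 9 were tested and Irs1 failed the filter on low counts. Log2 fold changes were above 0 for 5 and below 0 for 4, with a median of 0.069, beside a median of 0.0021 over all genes tested, of which 50.3% were above 0. Only Igfbp5 had an unadjusted p below 0.05, 1 of 9 beside 10.6% of all genes, which is near the background.

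Igf1, the growth hormone-responsive ligand, encoded on chromosome 10 (87858265 to 87937042, plus strand, GRCm38), was scarce. Its controls had a lowest level of 7.02, a median of 9.39 and a highest of 13.5 CPM, and the rilmenidine kidneys held 6.38, 21.2, 8.05 and 5.93 CPM. Rilmenidine kidney 2 stood above every other kidney, and the other 3 lay in the lower part of the control range or under it. These values rest on 11 to 39 counts per library, and the 39 counts of rilmenidine kidney 2 carry a 95% Poisson interval of 15.1 to 29.0 CPM, which covers counting error only. Its log2 fold change was 0.069 (SE 0.36, 95% interval -0.69 to 0.83, adjusted p = 0.973), and -0.49 without rilmenidine kidney 2 (adjusted p = 0.504). It was 0.54 with log2 library size as a covariate, 0.39 with log2 Malat1, and 0.42 in the 7 libraries with more sensory receptor gene counts.

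All 3 receptors had lower means in the treated kidneys, and none passed the test. Insr, the insulin receptor gene (chromosome 8, 3122061 to 3279617, minus strand), had a lowest control level of 25.0, a median of 33.7 and a highest of 43.1 CPM, against 24.9, 31.0, 21.7 and 25.9 CPM with rilmenidine. Every treated kidney lay below the control median and 2 of 4 below the control minimum, but the groups overlapped. The log2 fold change was -0.35 (SE 0.19, 95% interval -0.74 to 0.039, edgeR adjusted p = 0.524).

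Igf1r, the receptor for IGF-1 (chromosome 7, 67952827 to 68233668, plus strand), ranged in controls from 40.5 to 61.9 CPM with a median of 56.4. The rilmenidine kidneys held 29.0, 42.9, 57.4 and 48.1 CPM, so that only rilmenidine kidney 1 fell outside the control range. Its log2 fold change was -0.24 (SE 0.19, 95% interval -0.63 to 0.15, adjusted p = 0.688), and -0.092 without that kidney. Without rilmenidine kidney 3 it was -0.39.

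Igf2r, the lysosomal sorting receptor (chromosome 17, 12682406 to 12769664, minus strand), was the most abundant of the receptors. Its controls ran from 195 to 238 CPM with a median of 208, and the treated kidneys held 159, 190, 228 and 166 CPM. In 3 of 4 treated kidneys the level was below the control minimum, while rilmenidine kidney 3 was within the control range. For Igf2r the log2 fold change was -0.20 (SE 0.13, 95% interval -0.48 to 0.070, adjusted p = 0.608). With each kidney left out, it ran from -0.32 without rilmenidine kidney 3 to -0.14 without rilmenidine kidney 1. The count of Igf1r relative to that of Insr was 1.38 to 1.76 in the controls and 1.16 to 2.65 with rilmenidine, a wider spread around a like mean (1.62 ± 0.13, n = 6, and 1.76 ± 0.66, SD, n = 4).

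Levels of both tyrosine kinase receptors, of Igf1 and of Igfbp4 differed between control kidneys with high and low Malat1, a split that was not tested. Igf1 lay between 9.13 and 13.5 CPM with high Malat1 and between 7.02 and 8.39 CPM with low Malat1. Igfbp4 lay between 1120 and 1466 CPM with high Malat1 and between 1657 and 1732 CPM with low Malat1. In the 4 control kidneys with high Malat1, Insr averaged 36.7 CPM (31.5 to 43.1) and Igf1r 58.5 CPM (55.6 to 61.9). In the 2 control kidneys with low Malat1, they averaged 26.3 and 42.7 CPM, beside 25.9 CPM (21.7 to 31.0) and 44.3 CPM (29.0 to 57.4) in the rilmenidine kidneys. Rilmenidine kidney 3, with Malat1 at 306 CPM, had an Igf1r level within the range of the controls with high Malat1. With log2 Malat1 as a covariate the log2 fold change was -0.033 for Insr and 0.054 for Igf1r, a change of sign for the latter, whereas it was -0.20 for Igf2r. With log2 library size as a covariate it was -0.12 for Insr. Igfbp5 averaged 254 and 255 CPM in the control kidneys with high and low Malat1, and 191 CPM with rilmenidine.

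**Figure D2:**
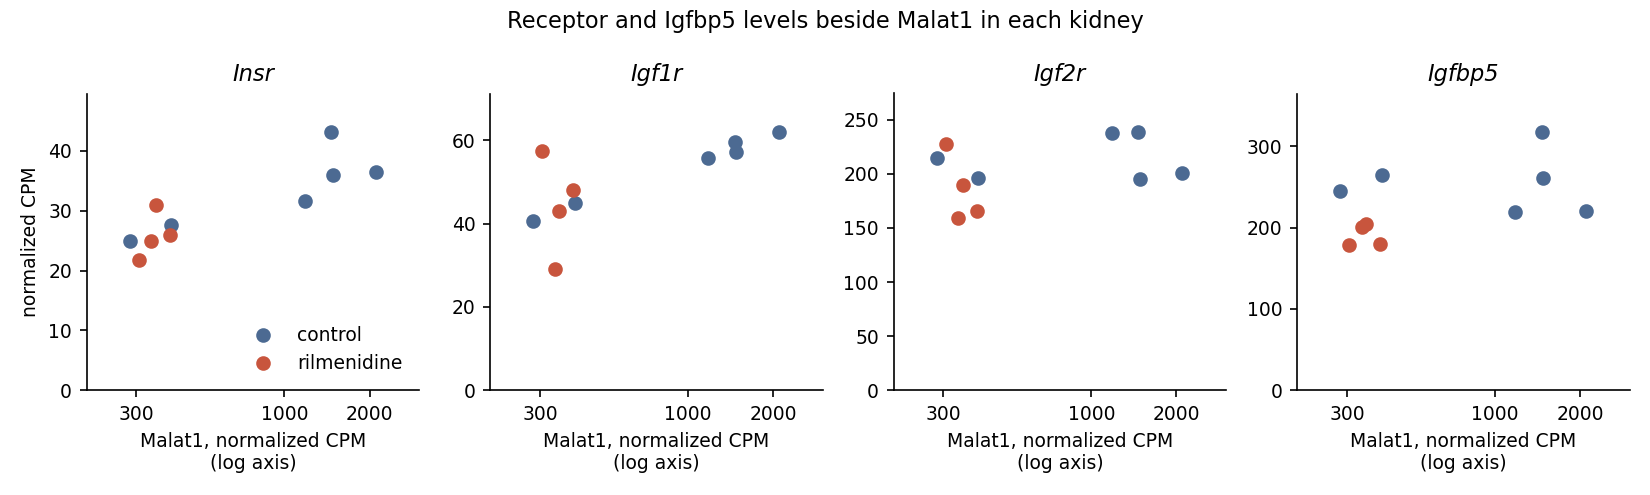
Normalized CPM (y axes, from 0) of Insr, Igf1r, Igf2r and Igfbp5 against normalized CPM of Malat1 (x axes, logarithmic) in each control (blue, n = 6) and rilmenidine (red, n = 4) kidney. The 4 control kidneys with Malat1 above 1000 CPM have the highest Insr levels, whereas the Igfbp5 levels of the controls lie above those of the rilmenidine kidneys at high and at low Malat1.

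Both substrates were scarce. Irs1 (chromosome 1, 82233101 to 82291416, minus strand) had 3, 2, 0, 3, 1 and 0 counts in control kidneys 1 to 6, and 2, 11, 0 and 3 in rilmenidine kidneys 1 to 4. A count of 0 in control kidneys 3 and 6 and rilmenidine kidney 3 allows up to 2.49, 1.17 and 1.05 CPM, taking 3 counts as the limit (the upper ends of the 95% Poisson intervals are 3.06, 1.44 and 1.29 CPM). Rilmenidine kidney 2 again held the most, and no difference was detectable at this depth. In a fit without the filter, over all genes with any count, the log2 fold change of Irs1 was 0.75 (SE 1.06, adjusted p = 0.854), and it was -0.66 without rilmenidine kidney 2 and 2.59 in the fit that includes library size.

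Irs2, the substrate that predominates in insulin action on liver and beta cells (chromosome 8, 10984681 to 11008458, minus strand), had a lowest control level of 5.07, a median of 9.07 and a highest of 16.8 CPM. The rilmenidine kidneys held 8.12, 14.1, 15.0 and 10.9 CPM, all within the control range. The log2 fold change was 0.25 (SE 0.33, 95% interval -0.46 to 0.95, adjusted p = 0.850), and ran from 0.070 without control kidney 6 to 0.46 without control kidney 2. Genes annotated on the opposite strand overlap exons of Irs1, Irs2 and Igfbp7, and held 0, 5 and 820 counts in all, beside 25, 212 and 10507 for these members. The sources used here do not give the strand setting of the counting.

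Among the binding proteins Igfbp5 stood out, with every rilmenidine kidney below every control kidney. Igfbp5 (chromosome 1, 72857932 to 72874884, minus strand) encodes a secreted protein that binds IGFs and extracellular matrix. It held 262, 265, 219, 317, 220 and 245 CPM in control kidneys 1 to 6, and 201, 204, 178 and 180 CPM in rilmenidine kidneys 1 to 4. The lowest control, at 219 CPM, lay just above the highest treated kidney, at 204 CPM. Of all genes tested, 1.67% had groups that did not overlap, and Igfbp5 was the only one of the 9. The means were 255 ± 36.4 CPM (SD, n = 6) and 191 ± 13.6 CPM (SD, n = 4). The log2 fold change was -0.42 (SE 0.13, 95% interval -0.69 to -0.15), with the 165th smallest p of the table, which did not pass after adjustment (edgeR adjusted p = 0.285, range over alternatives 0.0995 to 1.00). It lay between -0.47 and -0.34 in every alternative. In the 7 libraries with more sensory receptor gene counts it was -0.34. Of the other 3 libraries, control kidney 6 held 245 CPM against 178 and 180 CPM in rilmenidine kidneys 3 and 4.

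Igfbp4, an inhibitory binding protein cleaved by the protease Pappa (chromosome 11, 99041244 to 99054392, plus strand), had the most counts of the 10, from 1306 to 5111 per library. Its control levels ran from 1120 to 1732 CPM with a median of 1331, against 1933, 1737, 1322 and 1596 CPM with rilmenidine. The treated kidneys lay in the upper part of the control range or above it, except rilmenidine kidney 3. Igfbp4 had a log2 fold change of 0.24 (SE 0.16, 95% interval -0.098 to 0.58, adjusted p = 0.624), and of 0.0034 with Malat1 as a covariate. With each kidney left out, it ran from 0.16 without rilmenidine kidney 1 to 0.33 without rilmenidine kidney 3.

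Igfbp7, a vascular and matrix protein (chromosome 5, 77349240 to 77408041, minus strand), ran from 368 to 693 CPM in controls with a median of 501, and stood at 899, 397, 549 and 526 CPM with rilmenidine. Rilmenidine kidney 1 was the highest of the 10 kidneys, and the other 3 lay within the control range. Igfbp7 had a log2 fold change of 0.21 (SE 0.21, 95% interval -0.23 to 0.66, adjusted p = 0.767), and of -0.058 without that kidney. With Malat1 as a covariate it was 0.033, and Igfbp7 averaged 457 and 617 CPM in the control kidneys with high and low Malat1, beside 593 CPM with rilmenidine. Igfbp3, the main carrier of IGFs in serum (chromosome 11, 7206086 to 7213923, minus strand), ran from 31.5 to 64.0 CPM in controls with a median of 51.3, and stood at 84.1, 38.6, 68.9 and 39.0 CPM with rilmenidine. The treated kidneys split into a higher and a lower pair, with a log2 fold change of 0.20 (SE 0.24, 95% interval -0.30 to 0.70, adjusted p = 0.816) that was -0.024 without rilmenidine kidney 1.

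**Figure D3:**
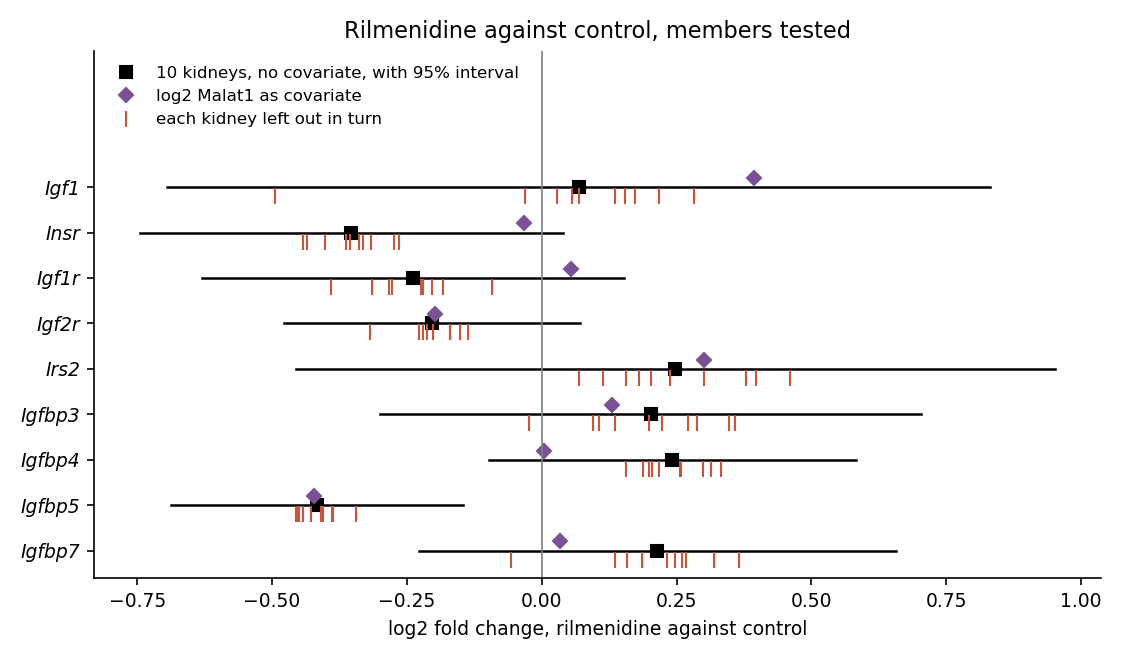
Log2 fold change of rilmenidine against control (x axis) for the 9 genes tested (y axis). Black squares and lines give the estimate with its 95% interval, purple diamonds the estimate with log2 Malat1 as a covariate, and red ticks the estimates with each of the 10 kidneys left out in turn. Only the interval of Igfbp5 lies wholly to one side of 0, and the diamonds of Insr, Igf1r, Igfbp4 and Igfbp7 lie close to 0. The diamonds are drawn without intervals, and as no rilmenidine kidney had high Malat1 they cannot clearly separate treatment from Malat1.

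Within the binding proteins, the share of Igfbp5 transcripts was lower in every treated kidney than in any control. This share needs no library scaling, but it and the ratio to Igfbp4 below rest on the same Igfbp5 counts and are no separate result. How often shares or ratios of other genes separate these groups was not counted. Of the summed counts of Igfbp3, Igfbp4, Igfbp5 and Igfbp7, Igfbp5 took 11.6, 9.71, 12.6, 16.1, 10.7 and 9.77% in control kidneys 1 to 6, and 6.44, 8.59, 8.42 and 7.67% in rilmenidine kidneys 1 to 4. The groups did not overlap, with means of 11.8 ± 2.41% (SD, n = 6) and 7.78 ± 0.98% (SD, n = 4). In single libraries, the 95% Wilson intervals of the lowest control (8.88 to 10.6%) and the highest treated kidney (7.80 to 9.46%) overlapped. The 2 lowest control shares, 9.71 and 9.77%, belonged to control kidneys 2 and 6, the controls with low Malat1, and the part of Malat1 in this share was not tested. Igfbp4 took 62.9 ± 3.07% and 66.4 ± 5.26%, Igfbp7 23.0 ± 3.28% and 23.5 ± 5.22%, and Igfbp3 2.28 ± 0.55% and 2.31 ± 0.80% (SD, n = 6 and n = 4). There were 3.73 to 6.77 Igfbp4 counts for each Igfbp5 count in the controls, and 7.41 to 9.63 with rilmenidine, and the highest control ratios, 6.54 and 6.77, were again those of control kidneys 2 and 6. The summed level of the 4 genes was 2207 ± 365 CPM (SD, n = 6) in controls and 2488 ± 434 CPM (SD, n = 4) with rilmenidine, which overlapped.

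**Figure D4:**
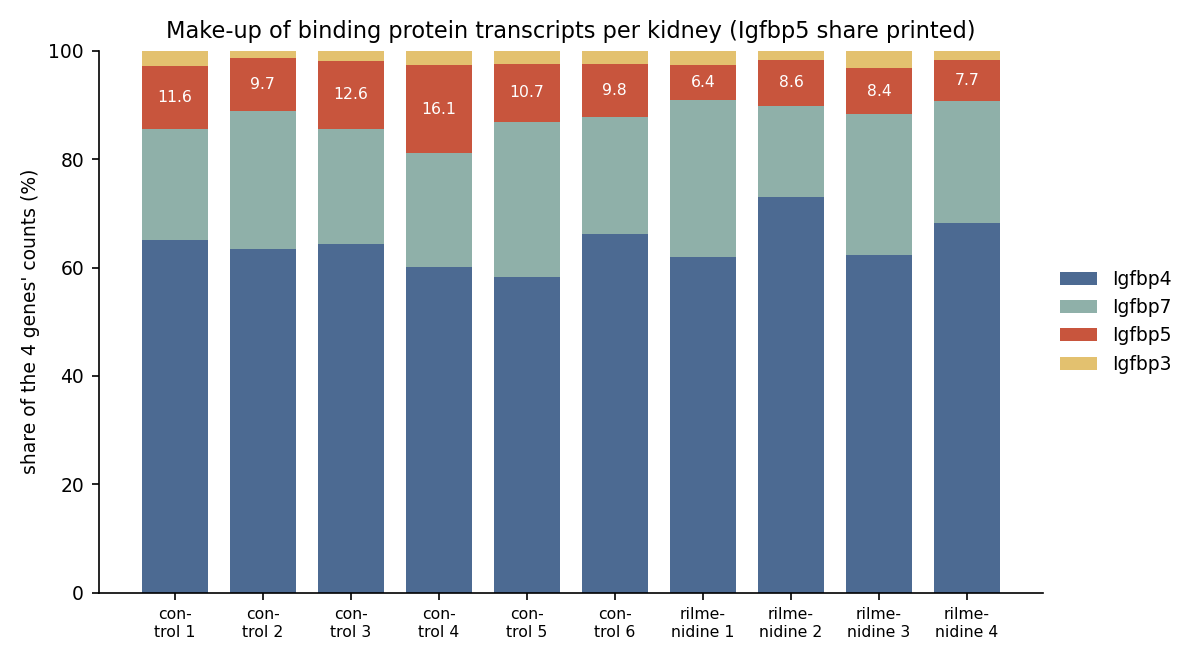
Share of the summed counts of Igfbp4, Igfbp7, Igfbp5 and Igfbp3 (y axis, percent, stacked from 0 to 100) in each kidney (x axis). The Igfbp5 share, printed in each bar, is 9.71% or more in the 6 control kidneys and 8.59% or less in the 4 rilmenidine kidneys.

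In whole kidney, fewer cells of a type and less RNA per cell cannot be told apart, and markers of cell types were therefore set beside the Igfbp5 values. The 10 endothelial markers, led by Plvap, summed to 399 ± 67.6 CPM (SD, n = 6) and 389 ± 18.1 CPM (SD, n = 4), and 5 of 10 had fold changes below 0. The 10 stromal and smooth muscle markers, led by Dcn, summed to 207 ± 66.7 and 187 ± 40.3 CPM, with 8 of 10 below 0. Control kidney 2 had the highest stromal sum, 333 CPM. The 8 distal tubule and collecting duct markers, led by Calb1, summed to 1170 ± 192 and 1033 ± 174 CPM. Of the 7 tested, 4 had log2 fold changes above 0 and 3 below, with a median of 0.11. Among them Slc12a3, the cotransporter of the distal convoluted tubule, had a log2 fold change of -0.55 (adjusted p = 0.313). The water channels Aqp2 and Aqp3 had 0.58 (adjusted p = 0.229) and 0.34 (adjusted p = 0.442). The 5 thick ascending limb markers, led by Umod, summed to 1698 ± 278 and 2364 ± 474 CPM, and all 4 that were tested had log2 fold changes above 0, among them Umod (0.61, adjusted p = 0.244) and the growth factor gene Egf (0.42, adjusted p = 0.385). The 6 podocyte markers, led by Podxl, summed to 88.0 ± 20.2 and 88.5 ± 19.0 CPM. Of the 4 tested, 1 had a log2 fold change above 0 and 3 below, with a median of -0.21. The 7 immune markers, led by Cd74, summed to 126 ± 55.4 and 148 ± 12.3 CPM, with 5 above 0 and 2 below. Their sum was 234 CPM in control kidney 2 and 77.2 to 126 CPM in the other controls, beside 135 to 164 CPM with rilmenidine. The 8 proximal tubule markers, led by Kap, summed to 49814 ± 4571 and 58078 ± 9770 CPM. Of these 8, 5 had log2 fold changes above 0 and 3 below, with a median of 0.14. The highest was 0.39 for Miox, an enzyme of inositol breakdown (adjusted p = 0.466). The 5 blood markers, led by Hbb-bs, summed to 3245 ± 2833 and 3317 ± 561 CPM. Control kidney 2 alone held 8803 CPM of them, and the other controls 980 to 3244 CPM. The 5 fat markers, led by Fabp4 and with no count of Lep, summed to 105 ± 25.7 and 110 ± 32.1 CPM. The 4 adrenal markers, led by Star, summed to 2.90 ± 2.65 and 3.67 ± 3.49 CPM. The part of these cell types in the Igfbp5 result was not tested.

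The rest of the pathway gave no call either. Of 71 further genes listed, 52 were tested. Of these, 0 passed the adjusted threshold and 1 had an unadjusted p below 0.05, beside 10.6% of all genes tested. The median log2 fold change was -0.078, with 22 above 0 and 30 below, beside 50.3% of all genes tested above 0. Among other ligands, receptors and binding proteins, 2 of 10 were tested. These were the growth hormone receptor Ghr (0.21, adjusted p = 0.688), and Insrr, an orphan relative of the insulin receptor that senses alkaline pH (-0.24, adjusted p = 0.873). Ghr stood at 0.051 without rilmenidine kidney 3 and at 0.33 without rilmenidine kidney 1. Transcripts of insulin itself were close to absent, with at most 2 counts of Ins1 and 3 of Ins2 in any library, and Igf2 had at most 4.

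Of the proteases that cleave binding proteins and their stanniocalcin inhibitors, 3 of 5 were tested, from Htra1, a serine protease that cleaves Igfbp5 (0.050), to Stc1 (0.082). Of the adaptors beside the receptors, 9 of 13 were tested, from Sh2b1, an adaptor of the insulin receptor (-0.30, adjusted p = 0.623), to the scaffold Rack1 (0.28, adjusted p = 0.524, and 0.0020 with Malat1 as a covariate). Of the receptor and substrate inhibitors, 8 of 12 were tested. They ran from the cytokine signaling suppressor Socs2 (-0.36, adjusted p = 0.684) to Enpp1, a membrane protein that inhibits the insulin receptor (0.092, adjusted p = 0.898). Socs2 stood at -0.15 without rilmenidine kidney 4 and at -0.59 without rilmenidine kidney 2. Medians of these lists were 0.064, -0.081 and -0.098 on the log2 scale.

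All 23 genes of the PI3-kinase and AKT list were tested, 11 above 0 and 12 below. Gsk3b, a kinase that AKT inhibits, had 137, 79.1, 80.5, 88.4, 118 and 77.2 CPM in control kidneys 1 to 6, and 76.5, 77.1, 59.5 and 81.2 CPM in rilmenidine kidneys 1 to 4. The 3 highest levels were controls and 3 of 4 treated kidneys lay below the control minimum, but the groups overlapped, with a log2 fold change of -0.38 (SE 0.18, edgeR adjusted p = 0.456). The lowest log2 fold change in the list was that of Rictor, the defining subunit of mTORC2 (-0.60, SE 0.30, adjusted p = 0.489), and the highest that of Pik3r2, a regulatory subunit of PI3-kinase (0.37, SE 0.22, adjusted p = 0.588). With log2 Malat1 as a covariate, Gsk3b stood at -0.064, Rictor at -0.13 and Pik3r2 at 0.059, and Rictor stood at -0.95 without rilmenidine kidney 2. Of the genes that insulin regulates in metabolism, 7 of 8 were tested. They ran from the lipogenic factor Srebf1 (-0.41, adjusted p = 0.593) to Pdk4, which inhibits pyruvate dehydrogenase (0.19, adjusted p = 0.911). Pdk4 lay between 0.041 and 0.37 with each kidney left out.

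**Figure D5:**
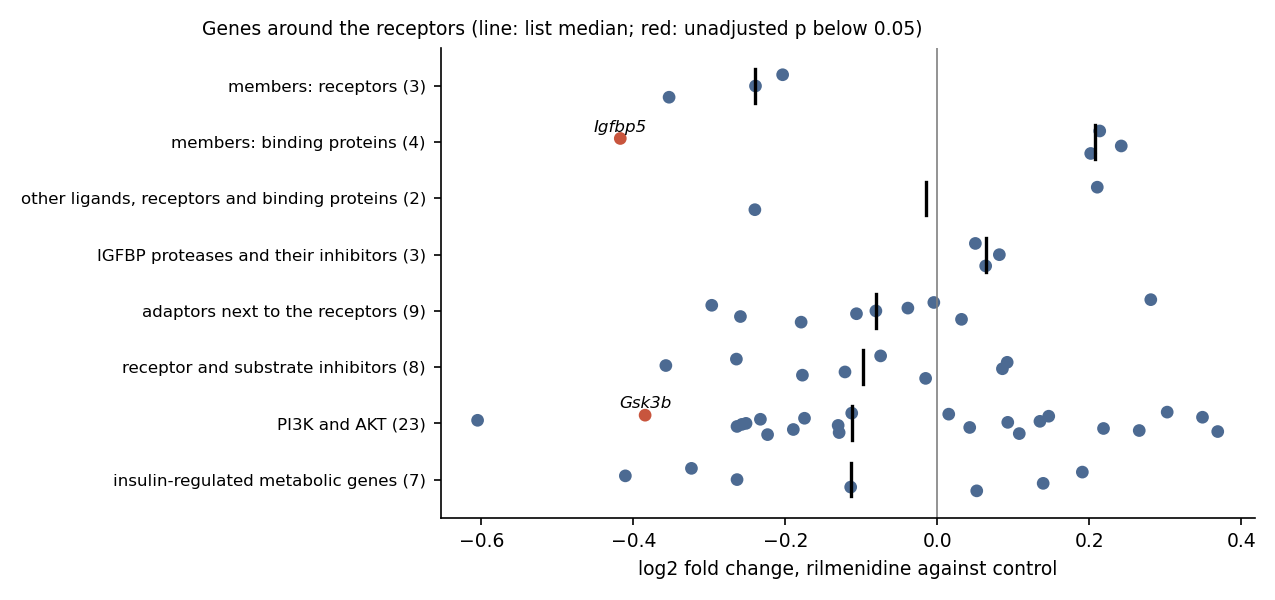
Log2 fold change of rilmenidine against control (x axis) for the tested genes of each list (y axis, number tested in brackets). Points are genes, red where the unadjusted p is below 0.05, and black lines are list medians. Igfbp5 and Gsk3b are the red points, and of the lists drawn all but the receptors and the proteases have genes on both sides of 0.

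Igfbp1 encodes a binding protein that insulin represses in liver and that is known to rise on fasting. It failed the filter on low counts and was singled out after its values were seen. The p-values given for it thus describe values it was chosen for, and are no test of them. Igfbp1 had 1, 3, 4, 1, 0 and 3 counts in control kidneys 1 to 6, and 21, 11, 12 and 8 counts in rilmenidine kidneys 1 to 4. All 4 treated libraries held more counts than any control library, but they were also deeper on average. In normalized CPM the controls ran from 0 to 3.32, and the treated kidneys stood at 12.2, 5.97, 4.2 and 2.5, so that rilmenidine kidney 4 lay within the control range. In the fit without the filter, the log2 fold change was 2.15 (SE 0.66, 95% interval 0.87 to 3.44) and did not pass (edgeR adjusted p = 0.102), while 241 of 27565 genes (0.874%) passed in that fit. It was 1.61 without rilmenidine kidney 1 (edgeR adjusted p = 0.734) and 2.57 without control kidney 3 (adjusted p = 0.050, just under the threshold). In the 7 libraries with more sensory receptor gene counts, the estimate was 2.67 (edgeR adjusted p = 0.0468). Over all its alternatives the estimate lay between 1.61 and 2.79. The adjusted p lay between 0.0468 and 0.971, the highest with Malat1 as a covariate, and DESeq2 gave none. The 5 liver markers, led by Alb, summed to between 2.24 and 24.0 CPM in controls and between 6.65 and 15.2 CPM with rilmenidine, and their part was not tested.

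How the 9 tested genes varied from kidney to kidney also differed. The biological coefficient of variation, which is the spread between kidneys beyond counting error, was lowest for Igfbp5 (0.157) and Igf2r (0.159) and highest for Igf1 (0.332) and Irs2 (0.301), beside a median of 0.199 over all genes tested. After group means were subtracted, the strongest correlation among the 9 was that of Igf1r with Igfbp4 (Pearson r = -0.83 over 10 kidneys). All points share the same libraries, depth and normalization, and levels of both genes differed between control kidneys with high and low Malat1. The pair was picked as the strongest of all pairs, so this is a description only.

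Over all genes tested and the same 10 kidneys, the gene most like each member was found by Pearson correlation of log2 normalized CPM after group means were subtracted. For Insr these were 4933439C10Rik (r = 0.965), the unnamed ENSMUSG00000086568 (r = 0.963) and Trio, a guanine nucleotide exchange factor (r = 0.951). For Igf1r, Tc2n (r = 0.952) and Zfp937 (r = 0.940) were among the most alike. The first gene was Jag1, a Notch ligand, for Igf1 (r = 0.960), Csnk1d for Igf2r (r = 0.943) and Gadd45g for Irs2 (r = 0.932). For the binding proteins it was Ramac for Igfbp3 (r = 0.961), Mif for Igfbp4 (r = 0.964), Cbfa2t2 for Igfbp5 (r = 0.935) and Gm4204 for Igfbp7 (r = 0.934). Each is the highest, or for Insr and Igf1r among the 3 highest, of about as many correlations as there are genes tested, over 10 points.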

How the data were processed

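The authors deposited raw counts of reads per Ensembl gene for 10 kidney libraries, prepared by a 3′ barcoding protocol (CEL-Seq2 type). Per the labels, reads were processed with bcl2fastq 1.8.4, Trimmomatic 0.32, STAR 2.5.2b and featureCounts 1.5, and mm10 is named. Strand setting and handling of molecular identifiers are not given in the sources used here; uncollapsed duplicates would inflate counts. Symbols, coordinates and exon lengths came from GENCODE M21 (GRCm38) and promoters from RefSeq GRCm38.p6. Samples were grouped by their titles.

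Genes that reached 6 reads in 7 or more of the 10 libraries were normalized by RLE and fitted whole in edgeR 4.0.16 (R 4.3.3) with the quasi-likelihood test and no covariate, with the Benjamini-Hochberg adjustment over all genes tested (threshold 0.05). Normalized CPM are counts per gene over the RLE-scaled library size, with a prior count of 2 for logarithms. Alternatives were TMM, DESeq2 1.42.0, the likelihood ratio test, 2 filters, covariates of library size and Malat1, a replicate block, and leaving out each kidney. Another kept only the 7 libraries with at least 10 CPM of olfactory and vomeronasal receptor genes. The Igfbp1 and Irs1 fits with every gene kept were added after seeing the data. The model was tested on simulated counts.

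Named genes are the 10 members, the genes with the largest and smallest change of each pathway list, any of these with an unadjusted p below 0.05 or no count, the genes most like each member, and Malat1. Beside these, the most abundant gene of each cell type marker list, the markers with an unadjusted p below 0.05, and listed ligands with few counts or (Igfbp1) singled out by their values are named. Some genes that this rule takes are not reported here. The members and lists were chosen with earlier results of these data known. Replicates are separate mice. Depth (863605 to 3232063 counts) limits low genes, and intervals on counts cover counting error only.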

Additional observations from a re-analysis of the deposited data

Results flagged for a closer look

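The Igf1 level of rilmenidine kidney 2, 21.2 CPM, stood far from the other 3 treated kidneys, which lay between 5.93 and 8.05 CPM. Its gap to the nearest was 0.861 of the group's range, above Dixon's 95% limit for 4 samples. It was 1 of 34 groups of values examined, and chance marks about 1 group in 20. The same library held the most Irs1 (11 counts), the highest sum of olfactory and vomeronasal receptor genes (436 CPM) and the most genes with a count (22848). Their part in the Igf1 value was not tested.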

How the results depend on the processing

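In every alternative, 0 of the members and 0 of the pathway genes were called, except for Igfbp1 in the fit without the filter. Igfbp1 passed there in the 7 libraries with more sensory receptor gene counts (2.67) and without control kidney 3 (2.57). It was chosen for its values, so these calls are no test of it. The number of genes called over the whole table was 60 with DESeq2, 44 with the likelihood ratio test, 241 with every gene of at least 1 count, and 0 to 37 with each kidney left out (33 without control kidney 2, 37 without control kidney 6, 6 without rilmenidine kidney 1). The order of baseline levels kept 6 of 10 places without length. The total counts gave p = 0.00794 to 0.167 with each kidney left out by the exact permutation test, past the threshold without control kidney 6 (0.00794) and without rilmenidine kidneys 1 or 2 (0.0357 each). Igfbp5 kept its direction and an unadjusted p below 0.05 in all alternatives except the 7 libraries with more sensory receptor gene counts. In those 7 libraries, Igf1r (-0.63, adjusted p = 0.351) and Igfbp4 (0.45, adjusted p = 0.442) had an unadjusted p below 0.05 instead.

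Directions changed only for log2 fold changes with intervals spanning 0, and the cause was not tested. With Malat1 as covariate, Igf1r became 0.054 and Pdk4 -0.053, while Gsk3b (-0.064), Rictor (-0.13) and Pik3r2 (0.059) kept their direction. In the 7 libraries, Irs2 became -0.052, Insrr 0.16, Ghr -0.17, Htra1 -0.079 and Enpp1 -0.012. With each kidney left out, the ranges were -0.49 to 0.28 for Igf1, -0.024 to 0.36 for Igfbp3, -0.058 to 0.36 for Igfbp7, -0.40 to 0.026 for Insrr, -0.086 to 0.27 for Stc1, -0.020 to 0.13 for Htra1 and -0.66 to 1.27 for Irs1.

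Replicate numbers did not pair the kidneys: correlations of deviations between kidneys of the same number were 0.093, 0.071, -0.093 and -0.015. With the replicate block, 0 of 9793 genes were called, Igf1 became -0.063, Htra1 -0.045 and Irs1 -0.070, and Igfbp5 was -0.47 (adjusted p = 0.342). No call changed.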
